A study of Mus musculus with 10 samples.

Results

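The Zscan4 family is a cluster of near-identical mouse genes on chromosome 7 that encode proteins with a SCAN domain, which pairs such proteins with each other, and zinc fingers, which bind DNA. The members were taken by symbol, as the letters a to f after Zscan4. Of 24411 genes in each deposited table, 5 matched: Zscan4a, Zscan4b, Zscan4c, Zscan4d and Zscan4f. The family is known for a burst of expression at the 2-cell stage, when the mouse embryo starts its own transcription, and for brief reactivation in a small fraction of embryonic stem cells at any moment. Its proteins have been tied to telomere lengthening by recombination and to changes in chromatin, and its transcripts are normally low by the morula stage. The transcription factor DUX and the proteins DPPA2 and DPPA4 are known activators of the family.

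The family was read in 10 RNA sequencing libraries, each made from the polyadenylated RNA of 10 mouse embryos by full-length cDNA amplification (SMART-Seq v4 PLUS kit). All embryos were made by in vitro fertilization, injected with an antisense oligonucleotide (ASO) 3 to 6 h after insemination, cultured in KSOM medium, and collected as morulae at 72 h. In the Mettl3-ASO group (5 libraries) the oligonucleotide targeted Mettl3, which encodes the catalytic part of the RNA N6-methyladenosine methyltransferase, and in the ASO-Control group (5 libraries) it was non-targeting. In each group replicates 3, 4 and 5 are labelled batch 2. Replicates 1 and 2 have no batch label and are called untagged. The strain is given as ICR for the untagged libraries, and the labels read here give no genotype or embryo sex. Whether the replicates stem from separate fertilizations is not stated, and the p-values below rest on a spread between libraries that could be technical. A pool of embryos cannot tell more cells that express a gene from more RNA per cell.

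Mettl3 was 6.58 to 12.68 FPKM (fragments per kilobase of transcript, scaled to the fragments of the library) in the ASO-Control libraries and 0 to 0.04 FPKM in the Mettl3-ASO libraries (adjusted p = 6.6e-08 by edgeR's quasi-likelihood test over all tested genes). Library totals ranged from 9905830 to 13530284 expected counts (untagged) and from 21412857 to 32327283 (batch 2). Summed over 9 trophectoderm markers, the libraries held 402.9 to 1193 FPKM in ASO-Control and 136.8 to 429.1 FPKM in Mettl3-ASO. Summed over 10 oocyte markers they held 3.55 to 8.01 and 11.3 to 26.86 FPKM, with none at 0 in all 10 libraries. Summed over 10 cumulus cell markers they held 0.02 to 0.09 and 0.05 to 0.76 FPKM, and 5 of those markers were listed at 0 throughout. Summed over 9 sperm markers they held 0.51 to 2.5 and 0.61 to 3.62 FPKM, with 2 listed at 0 throughout. The part of these cell types in the values below was not tested.

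In RefSeq's annotation of build GRCm38.p6, the assembly behind the mm10 build of the files, the members span 608078 bases. Zscan4a, a transcribed pseudogene there, lies at chr7:10794241-10799065. The protein-coding copies follow, with Zscan4b at chr7:10900740-10905050, Zscan4c at chr7:11005745-11010547, Zscan4d at chr7:11161643-11166148 and Zscan4f at chr7:11397915-11402318. RefSeq lists further Zscan4 pseudogenes in the cluster, Zscan4e among them, which were not analysed here. Each of the 5 transcripts has 4 exons. The promoters of the copies are shown because the copies were high in the same libraries and because their sequences show how alike the copies are. RefSeq's table held a window of 250 bases before to 50 after the annotated start for 4 of the 5 members. Capitals mark TATAAA, the letters of a TATA box, and CCAAT, the letters of a CCAAT box, and each run reads 5′ to 3′ on the strand of the gene. The windows are chr7:10905001-10905300 (minus strand) for Zscan4b, chr7:11005495-11005794 (plus) for Zscan4c, chr7:11166099-11166398 (minus) for Zscan4d and chr7:11397665-11397964 (plus) for Zscan4f.
Zscan4b: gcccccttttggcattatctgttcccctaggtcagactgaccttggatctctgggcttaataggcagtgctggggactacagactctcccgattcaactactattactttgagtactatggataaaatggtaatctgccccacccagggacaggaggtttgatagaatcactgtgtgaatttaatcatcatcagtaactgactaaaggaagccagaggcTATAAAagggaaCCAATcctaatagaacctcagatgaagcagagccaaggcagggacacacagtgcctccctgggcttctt
Zscan4c: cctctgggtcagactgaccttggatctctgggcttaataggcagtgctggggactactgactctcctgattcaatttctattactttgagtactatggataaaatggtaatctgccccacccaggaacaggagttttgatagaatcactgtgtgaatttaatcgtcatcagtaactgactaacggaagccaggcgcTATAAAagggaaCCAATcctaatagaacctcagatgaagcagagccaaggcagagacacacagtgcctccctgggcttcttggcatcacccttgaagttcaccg
Zscan4d: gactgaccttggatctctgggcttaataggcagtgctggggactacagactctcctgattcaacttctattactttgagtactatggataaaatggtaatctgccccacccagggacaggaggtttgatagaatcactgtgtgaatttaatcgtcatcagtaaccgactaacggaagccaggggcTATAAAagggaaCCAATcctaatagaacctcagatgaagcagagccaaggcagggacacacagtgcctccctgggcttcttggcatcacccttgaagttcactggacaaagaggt
Zscan4f: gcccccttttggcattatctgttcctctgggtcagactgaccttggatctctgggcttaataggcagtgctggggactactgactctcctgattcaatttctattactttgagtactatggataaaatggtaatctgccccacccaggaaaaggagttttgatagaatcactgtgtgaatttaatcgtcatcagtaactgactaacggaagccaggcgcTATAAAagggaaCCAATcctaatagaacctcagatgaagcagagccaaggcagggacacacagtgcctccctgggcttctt

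The aligned parts of these windows were 95.3 to 99.3% identical, and Zscan4c and Zscan4f differed at 2 of 277 aligned bases. Both strands were searched for each motif, and the motifs do not overlap in these windows. TATAAA occurred once in each of the 4 windows, beginning 31 bases before the annotated start in Zscan4b and Zscan4f, 54 in Zscan4c and 65 in Zscan4d. CCAAT followed it in each. Of 32851 promoter windows of this length, 13.6% held TATAAA and 37.4% held CCAAT. The letters GATTNAATC, a core of sites bound by DUX, were in 0.268% of all windows, and TGCACAC, a site reported for ZSCAN4 itself, in 4.4%; neither was in these 4 windows.

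Transcripts of the members were 96.8 to 99.6% identical over their aligned parts in GENCODE's annotation, and the closest pair, Zscan4c and Zscan4f, differed at 7 of 1806 bases. Among stretches of 50 bases, 47.3% (Zscan4b) to 87.6% (Zscan4f) also occurred in another member, and 44.3 to 90.8% occurred in a Zscan4 locus that is no member. Some 3.01 to 7.98% occurred in a gene outside the Zscan4 loci. Among stretches of 200 bases, near the mean fragment length of 201.7 to 235.3 bases, 6.05% (Zscan4b) to 48.5% (Zscan4f) also occurred in another member. Reads from Zscan4 loci that are no members may therefore be counted in the members. The estimation behind the files shares out reads that match several genes, so the split between copies is uncertain, most of all between Zscan4c and Zscan4f. The family sum was within 0.02 of a whole number in all 10 libraries, although single copies were not whole in 7 of them. The sum was therefore used as the family's level, in CPM, which scales the count by the total expected count of the library.

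The family level was far higher in 3 of the 5 Mettl3-ASO libraries, at 400 to 715 CPM, than in any ASO-Control library. The remaining 2 were within the range of the controls. ASO-Control replicate 1 held 4 counts (0.313 CPM) and replicate 2 held 0, where 3 counts would be 0.254 CPM. ASO-Control replicate 3 held 21 (0.736 CPM), replicate 4 held 17 (0.530 CPM) and replicate 5 held 150 (4.64 CPM). Mettl3-ASO replicate 1 held 7908 counts (584 CPM), replicate 2 held 3961 (400 CPM), replicate 3 held 99 (3.55 CPM), replicate 4 held 18699 (715 CPM) and replicate 5 held 49 (2.29 CPM). The 3 high libraries, Mettl3-ASO replicates 1, 2 and 4, came from both the untagged libraries and batch 2. Within batch 2, the family in replicate 4 made up 0.0715% of all counts, and in replicates 3 and 5 of the same group it made up 0.000355% and 0.000229%. Total expected counts of Mettl3-ASO replicates 1 to 5 were 13530284, 9905830, 27860793, 26159391 and 21412857, and the part of depth in the family's levels was not tested.

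**Figure D1:**
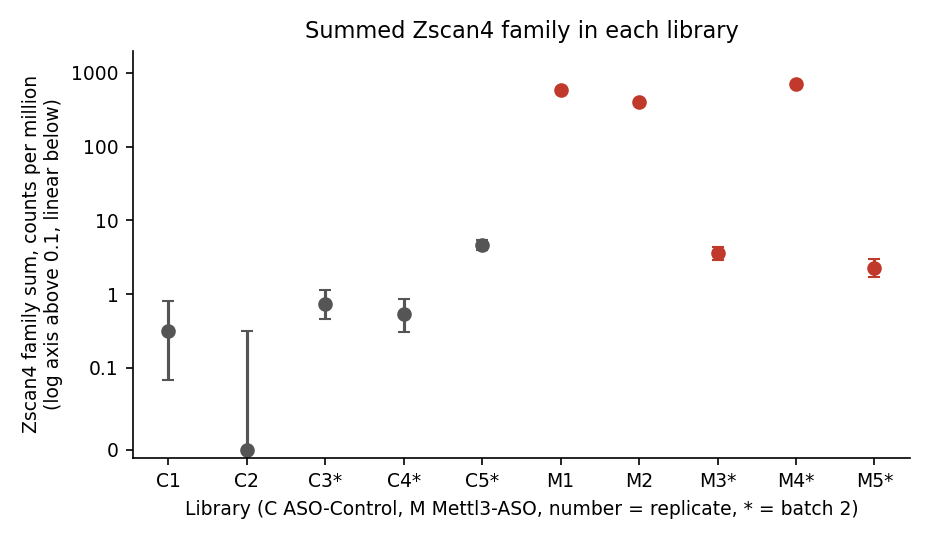
Summed CPM of the 5 Zscan4 copies in each library, on a symmetric log axis, with bars for the 95% exact Poisson interval of the counts (C, ASO-Control; M, Mettl3-ASO; the number is the replicate and the asterisk marks batch 2). Mettl3-ASO replicates 1, 2 and 4 sit at 400 to 715 CPM, and replicates 3 and 5, at 3.55 and 2.29 CPM, sit below ASO-Control replicate 5 at 4.64 CPM.

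The low Mettl3-ASO libraries were nonetheless not at the level of most controls. The 95% exact Poisson interval, which covers counting error only, was 2.89 to 4.33 CPM in replicate 3 and 1.69 to 3.03 CPM in replicate 5, above those of ASO-Control replicates 1 to 4, whose highest upper bound was 1.12 CPM. ASO-Control replicate 5, the control that stands apart, had an interval of 3.93 to 5.44 CPM, which overlaps that of Mettl3-ASO replicate 3 and lies above that of replicate 5. Group means were 1.24 ± 1.92 CPM in ASO-Control and 341 ± 328 CPM in Mettl3-ASO (SD, n = 5 each), a ratio of 274. The SD of the Mettl3-ASO group is nearly as large as its mean, so the mean describes none of its libraries, and without ASO-Control replicate 5 the ratio was 864. In batch 2 without Mettl3-ASO replicate 4, the group means were 2.92 CPM for Mettl3-ASO and 1.97 CPM for ASO-Control. That library was the only high one of its group in batch 2, so a smaller difference was given by leaving it out.

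All 5 copies were high in Mettl3-ASO replicates 1, 2 and 4 and low in the rest. Zscan4f, the most abundant copy per length in the high libraries, was listed at 0, 0, 0.27, 0 and 1.29 FPKM in ASO-Control replicates 1 to 5 and at 137.47, 124.08, 0.44, 170.49 and 0.28 FPKM in Mettl3-ASO replicates 1 to 5. Mettl3-ASO replicates 3 and 5 thus lay between the control libraries for this copy. Zscan4c, nearly identical to it in sequence, was at 0, 0, 0.15, 0.18 and 0.51 FPKM in the controls and at 70.90, 50.46, 0.36, 110.20 and 0.31 FPKM in Mettl3-ASO, so its groups also overlapped. Zscan4d was at 0.13, 0, 0, 0.07 and 0.64 FPKM in the controls and at 55.37, 24.25, 0.51, 63.66 and 0.31 FPKM in Mettl3-ASO, again with 2 Mettl3-ASO libraries inside the control range. Zscan4b was at 0, 0, 0, 0.02 and 0.25 FPKM in the controls and at 37.69, 14.40, 0.26, 29.81 and 0 FPKM in Mettl3-ASO. For this copy Mettl3-ASO replicate 3 lay just above the highest control, and replicate 5 had no count, where 3 counts would be 0.140 CPM. Zscan4a, the copy annotated as a pseudogene, was at 0.04, 0, 0, 0 and 0.02 FPKM in the controls and at 29.51, 13.46, 0.41, 28.38 and 0.32 FPKM in Mettl3-ASO. It was the only copy of the 5 whose groups did not overlap, with every Mettl3-ASO library above every control. Of all tested genes, 15.1% were higher in every Mettl3-ASO library than in every control.

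**Figure D2:**
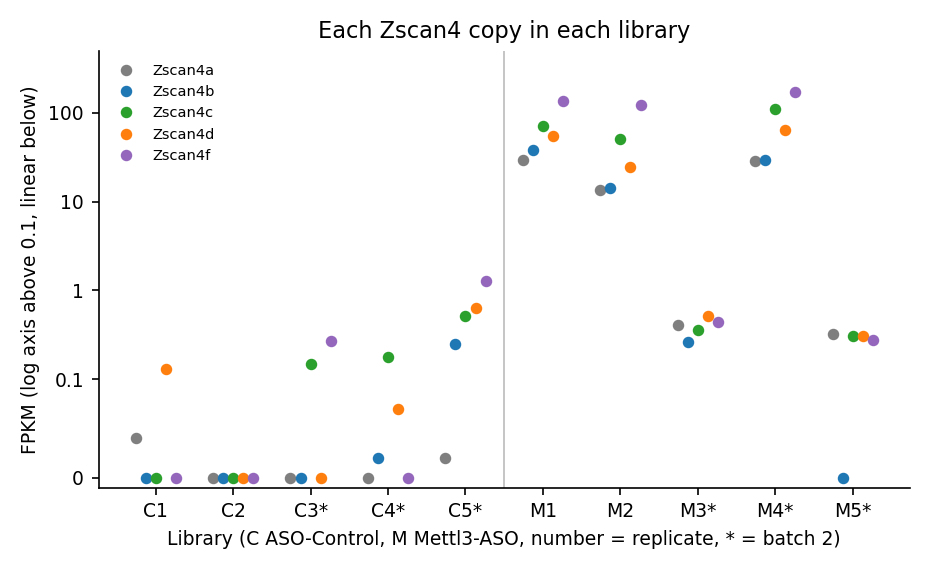
FPKM of each Zscan4 copy in each library, on a symmetric log axis (C, ASO-Control; M, Mettl3-ASO; the asterisk marks batch 2). All 5 copies sit at 13.46 FPKM or more in Mettl3-ASO replicates 1, 2 and 4, and at 0.51 FPKM or less in Mettl3-ASO replicates 3 and 5.

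All 5 copies passed the threshold in edgeR's quasi-likelihood test with a term for batch, fitted over 9522 genes and adjusted by Benjamini-Hochberg, and all were higher in Mettl3-ASO. In that fit 49.4% of all tested genes were called, 25.4% higher and 24% lower, so calls are common here. The copies entered the test only through the Mettl3-ASO libraries: the filter asks for a mean of 1 FPKM over all libraries, and the control means of the copies were 0.012 to 0.312 FPKM. The count of 5 of 5 is therefore a description. The log2 fold change was 7.64 ± 1.54 for Zscan4c (SE, adjusted p = 0.00136 by edgeR), 6.97 ± 1.46 for Zscan4d (0.00174), 7.43 ± 1.58 for Zscan4b (0.00193) and 7.56 ± 1.68 for Zscan4f (0.00256). Zscan4a gave 10.02 ± 1.59 (adjusted p = 0.000262 by edgeR), but its control counts sum to 2 after rounding, against 2634 in Mettl3-ASO, so its fitted value depends on the prior count. Its pooled CPM ratio was 1566 with a 95% counting interval of 433 to 12930.

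These calls rest partly on Mettl3-ASO replicate 4. Without it, Zscan4c (log2 fold change 4.23, adjusted p = 0.0622 by edgeR) and Zscan4f (4.13, adjusted p = 0.153) were no longer called. The other 3 copies were called in that fit, in which 23.6% of all genes were called higher, with smaller log2 fold changes of 8.51 for Zscan4a, 4.85 for Zscan4b (adjusted p = 0.0287 by edgeR) and 4.10 for Zscan4d (0.0447). With the Wald test of DESeq2, where 26.2% of genes were called higher, 3 copies were called and Zscan4a and Zscan4f were given no p. Without the filter of DESeq2 on outlying counts (26.3%), and with a replicate block in place of batch (27.6%), all 5 were called higher. In batch 2 alone, where 20.2% of genes were called higher, all 5 were called higher with adjusted p values by edgeR of 0.00591 for Zscan4a, 0.0268 for Zscan4b, 0.0197 for Zscan4c, 0.0240 for Zscan4d and 0.0315 for Zscan4f. In batch 2 without Mettl3-ASO replicate 4, where 16.7% of genes were called higher, 4 of the 5 copies lost the call, Zscan4f at a log2 difference of -0.58 (adjusted p = 0.759 by edgeR). Replicate 4 was the only high Mettl3-ASO library of batch 2, so a smaller difference was given by that exclusion. Leaving out ASO-Control replicate 3, 4 or 5 from batch 2 left 1, 1 and 2 copies called, where 15.4%, 18.8% and 15.1% of genes were called higher. The log2 fold changes of the copies that lost the call there were 5.86 to 6.66 without replicate 3, 5.96 to 6.68 without replicate 4 and 7.73 to 9.48 without replicate 5, beside 6.41 to 6.94 for Zscan4b, Zscan4c, Zscan4d and Zscan4f in all of batch 2. In the untagged libraries alone, where 3.79% of genes were called higher, all 5 were called higher, with adjusted p values by edgeR of 0.00114 to 0.00609. There Zscan4b, Zscan4c and Zscan4f had 0 control counts, so their differences are bounds, at least 351.5-fold, 1053-fold and 1747-fold higher at a floor of 3 counts over the control group. Two-sided exact permutation tests of log2(CPM + 1), which relabelled libraries within each batch in 120 ways and cannot go below 0.0167, gave p = 0.0167 for Zscan4a. The exact permutation tests gave p = 0.05 for Zscan4c and Zscan4d, and p = 0.0833 for Zscan4b and Zscan4f. Only Zscan4a was thus under 0.05 in these tests, whose p values were not adjusted over the copies.

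Whether the difference varied between batches was tested as an interaction of group and batch. In edgeR's test 0 of 9522 genes were called, with 159 at an unadjusted p under 0.05, and each of the 5 copies had an adjusted p of 1 after rounding. Without Mettl3-ASO replicate 4, Zscan4c alone was called for this interaction (adjusted p = 0.00416 by edgeR), its difference being smaller in batch 2. Leaving out replicate 4 removed the only high Mettl3-ASO library of batch 2, so a smaller difference there was given by the exclusion. Zscan4c also had 0 control counts in the untagged libraries, so the size of the fitted interaction depends on the prior count. The 3-library batch 2 group of Mettl3-ASO holds 1 high and 2 low libraries, and the untagged group of 2 holds only high ones, so a difference between batches and a difference between single libraries cannot be told apart.

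The copies were also among the 10 tested genes whose levels varied most between Mettl3-ASO libraries. These ranks are a description, since the family was chosen with earlier results known and passed the filter through the Mettl3-ASO libraries. The copies share reads, so their ranks are not separate observations. The SD of log2(CPM + 1) within Mettl3-ASO was 3.95 for Zscan4f and 3.58 for Zscan4c, ranks 1 and 2 of 9522 tested genes. Zscan4d (3.08) ranked 6, Zscan4b (2.83) ranked 9 and Zscan4a (2.64) ranked 10, beside a median SD of 0.384 over all tested genes. Within ASO-Control the same SDs were 0.701 for Zscan4f, rank 497, and 0.0494 for Zscan4a, rank 9479, beside a median of 0.315.

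The mix of copies was similar in the high libraries. In Mettl3-ASO replicates 1, 2 and 4 the order per length was Zscan4f, Zscan4c, Zscan4d, Zscan4b and Zscan4a. Zscan4f made up 41.5%, 54.7% and 42.4% of the summed FPKM in these libraries, and Zscan4c made up 21.4%, 22.3% and 27.4%. Zscan4d made up 16.7%, 10.7% and 15.8%. Zscan4a and Zscan4b each held 5.94 to 11.4% there. In ASO-Control replicate 5, the only control with at least 100 family counts, Zscan4f held 47.6%, Zscan4d 23.6%, Zscan4c 18.8%, Zscan4b 9.22% and Zscan4a 0.738%, with Zscan4d and Zscan4c in the other order. The 99 family counts of Mettl3-ASO replicate 3 fell on Zscan4a (23.28 expected counts), Zscan4b (11.18), Zscan4c (20.41), Zscan4d (24.76) and Zscan4f (19.37), an even mix in which Zscan4f was not first. With so few counts and near-identical copies the order of the copies there carries little information. Zscan4a nonetheless held 23.28 of 99 counts there, against 1.38 of 150 in ASO-Control replicate 5. In Mettl3-ASO replicate 5 it held 13.87 of 49. Its exact Poisson intervals in these libraries were, in that order, 0.531 to 1.25, 0.00256 to 0.192 and 0.353 to 1.09 CPM. Zscan4f went the other way, with 19.37, 66.69 and 9.54 counts. The intervals do not cover the sharing of reads between copies, and the cause of the different mix was not tested.

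**Figure D3:**
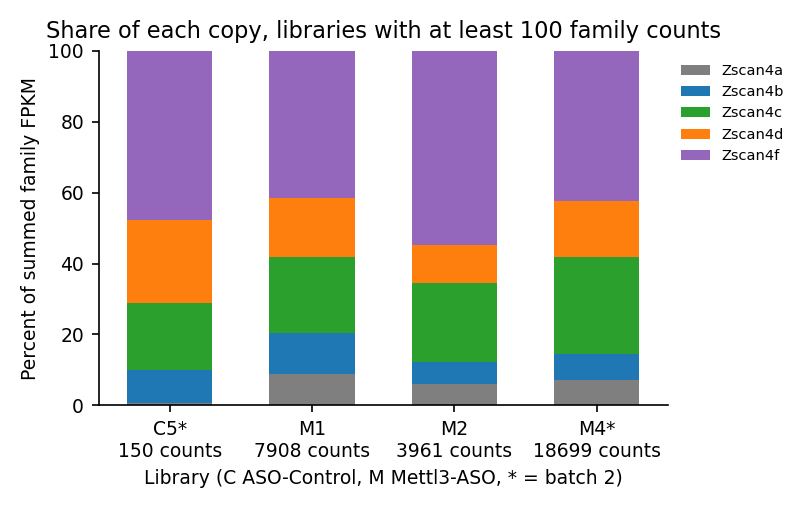
Percent of the summed Zscan4 FPKM held by each copy in the 4 libraries with at least 100 family counts, with the family count under each bar. Zscan4f is the largest share in all 4, at 41.5 to 54.7%.

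The profiles of other genes were compared with the family sum by the root mean square difference of log2(CPM + 1) over the 10 libraries after centring each gene, which had a median of 3.68 over the 9517 other tested genes. The nearest was Gm13078, named Pramel24 by RefSeq, at 0.98. Gm13078 was at 0, 0, 0.02, 0.02 and 0.53 FPKM in ASO-Control replicates 1 to 5 and at 75.21, 62.92, 0.04, 32.91 and 0.3 FPKM in Mettl3-ASO replicates 1 to 5. Like the family, it was high in Mettl3-ASO replicates 1, 2 and 4 and at control levels in replicates 3 and 5. Gm5039, a transcribed pseudogene, came second at 1.37, with 0, 0.18, 0.22, 0 and 1.62 FPKM in the controls and 108.76, 85.55, 4.38, 110.92 and 14.69 FPKM in Mettl3-ASO. It differs from the family in that its 2 low Mettl3-ASO libraries lie above every control. The next were AF067061, Gm12794, A430089I19Rik, Gm11757, Tdpoz3 and Usp17lb, at 1.95 to 2.26. Within Mettl3-ASO, all of these but Usp17lb were lowest in replicates 3 and 5, as the family was. Usp17lb was highest in replicate 3, at 166.36 FPKM. A430089I19Rik was at only 4.77 FPKM in replicate 2 and Gm11757 at 3.56 FPKM in replicate 1, where the family was high. All 8 nearest genes were called higher in Mettl3-ASO by edgeR, beside 25.4% of all tested genes. They were picked for a profile like the family's in these same libraries, so the calls follow from the choice. AF067061, Tdpoz3 and Usp17lb are also on the list of genes of the 2-cell stage described next. Both of the nearest genes stayed first and second with a pseudocount of 0.1 and with FPKM, while 5 and 7 of the 8 names stayed.

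**Figure D4:**
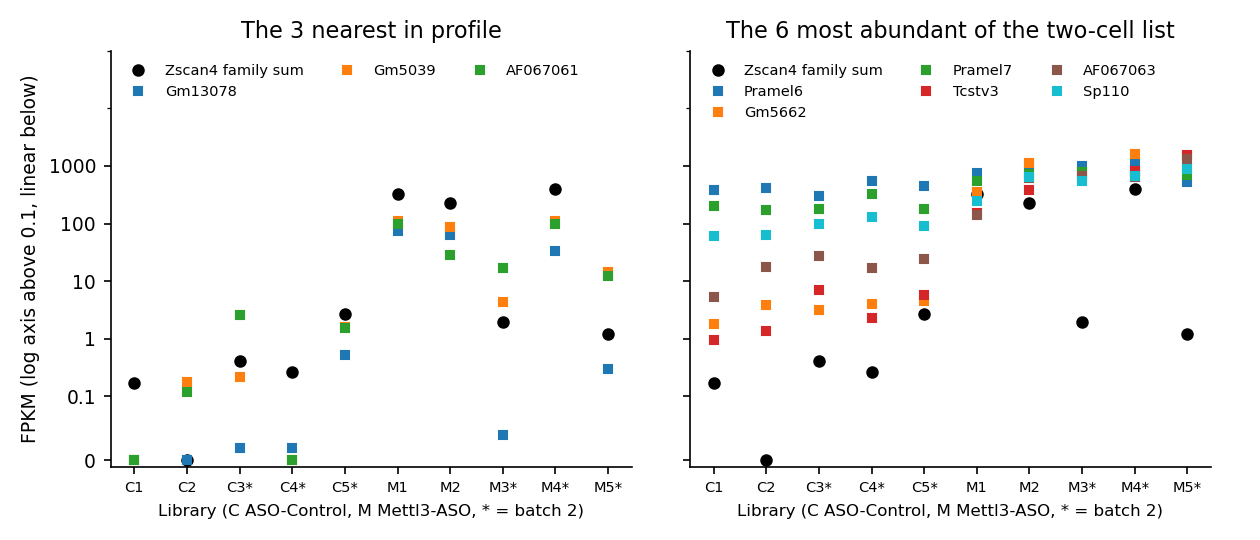
FPKM of the summed Zscan4 family (black) beside its 3 nearest genes (left) and beside the 6 most abundant genes of the 2-cell list (right) in each library, on a symmetric log axis (C, ASO-Control; M, Mettl3-ASO; the asterisk marks batch 2). Gm13078, Gm5039 and AF067061, itself on the 2-cell list, are lower in Mettl3-ASO replicates 3 and 5 than in the other 3, and none of the 6 genes on the right is.

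Most other genes of the 2-cell stage were above the controls in all 5 Mettl3-ASO libraries, 22 of 27 tested. The same share over all tested genes was 15.1%. Of 29 such genes measured, 27 were tested, 26 were called higher in Mettl3-ASO and 0 lower, beside 25.4% and 24% of all tested genes, with a median log2 fold change of 6.62 over the tested genes beside 0.01 over all tested genes. The list's median was the same with its 1 gene of few control counts set to its pooled ratio. The exception was Eif1a, a translation initiation factor gene, at 222 ± 18.3 FPKM in ASO-Control and 209 ± 28.7 in Mettl3-ASO (adjusted p = 0.344 by edgeR), named because it was the only one. In the libraries where the family was low, 24 of the 27 (88.9%) were above the highest control in each of Mettl3-ASO replicates 3 and 5, and 26 of 27 in each of the other 3. Of all tested genes, 27.5 to 46.3% were above the highest control in a given Mettl3-ASO library. The family's share was 5 of 5 copies in replicates 1, 2 and 4, 2 of 5 in replicate 3 and 1 of 5 in replicate 5. The 27 include genes near 0 in the controls, which passed the filter through the Mettl3-ASO libraries, so this share is a description.

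**Figure D5:**
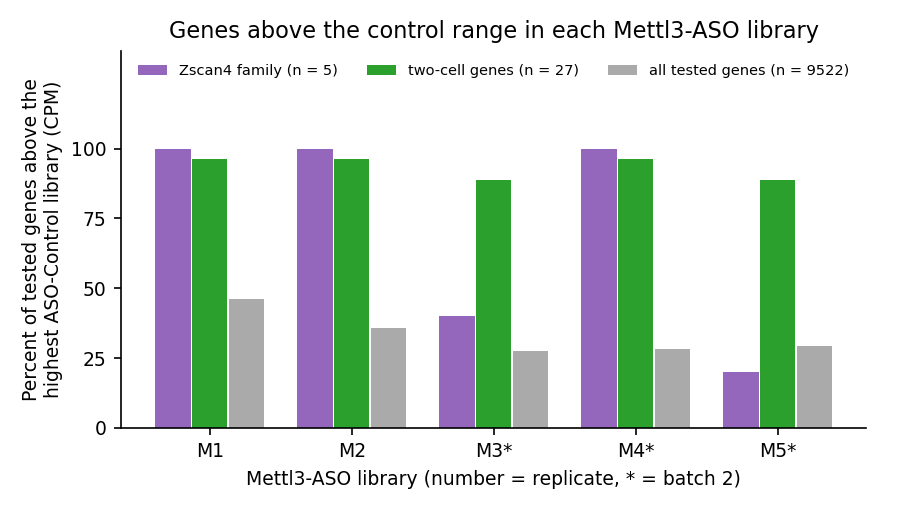
Percent of genes whose CPM was above the highest ASO-Control library, in each Mettl3-ASO library, for the 5 Zscan4 copies, the 27 tested genes of the 2-cell stage and all 9522 tested genes. The Zscan4 share falls to 40 and 20% in replicates 3 and 5, where the 2-cell genes stay at 88.9%.

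The 6 most abundant genes of the list were not low in both Mettl3-ASO replicates 3 and 5, and some less abundant ones were. Tcstv3, a 2-cell stage gene used as a marker of that stage, was at 0.95 to 7.09 FPKM in the controls and at 153.65, 389.96, 594.37, 829.91 and 1574.25 FPKM in Mettl3-ASO replicates 1 to 5, highest in replicate 5, where the family was lowest. Gm5662 was at 1.78 to 4.49 FPKM in the controls and at 356.59, 1130.58, 800.13, 1614.06 and 1509.22 FPKM in Mettl3-ASO. AF067063 was at 5.31 to 27.03 FPKM in the controls and at 140.89, 620.7, 662.43, 632.06 and 1305.32 FPKM in Mettl3-ASO. For each of these 3 genes the lowest Mettl3-ASO library was replicate 1, which held 584 CPM of the family. AF067061, of the same list, was at 97.29, 28.12, 16.82, 99.07 and 12.24 FPKM in Mettl3-ASO and thus lowest where the family was low. So were Usp17la, at 15.83, 1.16, 0.1, 5.95 and 0.95 FPKM, Usp17le, at 12.65, 0.65, 0, 1.27 and 0.48 FPKM, and Pramef6, at 13.78, 15.68, 1.37, 7.48 and 1.61 FPKM. These last 3 were chosen for mention after their values were seen. Pramel6 and Pramel7, members of the Prame family, were high in both groups, at 419 ± 87.9 and 212 ± 62.1 FPKM in ASO-Control against 868 ± 221 and 717 ± 104 FPKM in Mettl3-ASO. Their adjusted p values by edgeR were 0.00119 and 7.5e-06. Sp110, a nuclear body gene, rose from 88.1 ± 27.9 to 597 ± 232 FPKM (adjusted p = 5.4e-06 by edgeR). Over the 27 tested 2-cell genes, the lowest Mettl3-ASO library was replicate 1 for 13, replicate 3 for 9, replicate 5 for 4 and replicate 4 for 1. For the family it was replicate 5 for all 5 copies. Over all 9522 tested genes it was replicate 1 for 1307, replicate 2 for 1610, replicate 3 for 2270, replicate 4 for 1538 and replicate 5 for 2797.

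Of 13 measured genes known to activate the 2-cell program, 9 were tested, 4 were called higher and 0 lower, beside 25.4% and 24% of all tested genes. Dppa2 was at 753 ± 201 FPKM in ASO-Control and 893 ± 182 in Mettl3-ASO (adjusted p = 0.200 by edgeR), and Dppa4 at 506 ± 76.4 and 546 ± 115 (adjusted p = 0.653 by edgeR), neither passing the threshold. Obox6, a homeobox gene of the oocyte and early embryo, rose from 328 ± 149 to 1001 ± 313 FPKM (adjusted p = 0.000206 by edgeR). Dux itself, chosen for mention after its values were seen, was below the filter on level and was not tested. It was at 0.09, 0.23, 0.02, 0 and 0 FPKM in the controls and at 2.78, 0, 0.16, 0.30 and 0 FPKM in Mettl3-ASO. Mettl3-ASO replicate 2, where Dux was listed at 0 and the family was at 227 FPKM, had the lowest total expected count. In that library 3 counts would be 0.303 CPM. The part of Dux in the family's levels was not tested.

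Of 28 repressors of the 2-cell program, 27 were tested, 7 called higher and 5 lower, with a median log2 fold change of 0.12. Those shares are near the 25.4% and 24% of all tested genes. Sumo2, which encodes a small protein attached to other proteins, and Hdac1, a histone deacetylase gene, had adjusted p values by edgeR of 0.746 and 0.979. Of 24 tested telomere maintenance genes, 7 were called higher and 5 lower, again near the shares over all tested genes. Nop10, which helps hold the telomerase RNA, rose by 0.71 ± 0.15 on the log2 scale (adjusted p = 0.00228 by edgeR), while Nhp2 and Dkc1, from the same particle, had adjusted p values of 0.0706 and 0.580. Of 13 tested meiotic recombination genes, 3 were called higher and 2 lower, beside 25.4% and 24% of all tested genes. Syce2, of the synaptonemal complex, fell by 0.75 ± 0.16 on the log2 scale (adjusted p = 0.00180 by edgeR). Sycp3, of the same complex, and Psmc3ip, a recombination cofactor gene, had adjusted p values by edgeR of 0.0641 and 0.163.

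Among 28 measured relatives with a SCAN domain or a linked zinc finger, 15 were tested, 10 were called higher and 0 lower, beside 25.4% and 24% of all tested genes, with a median log2 fold change of 0.72. Zscan5b rose from 8.72 ± 0.72 to 30.75 ± 14.0 FPKM (adjusted p = 0.000595 by edgeR). It was at 11.89, 41.54, 23.9, 29.35 and 47.05 FPKM in Mettl3-ASO replicates 1 to 5, highest in replicate 5, where the Zscan4 family was lowest. Zfp110 rose by 0.52 ± 0.18 on the log2 scale (adjusted p = 0.0281 by edgeR), and Scand1 was at 59.8 ± 11.2 and 70.5 ± 21.9 FPKM (adjusted p = 0.438 by edgeR).

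Of 8 tested genes of the N6-methyladenosine writer complex, Mettl3 among them, 4 were called higher and 2 lower, beside 25.4% and 24% of all tested genes. Wtap, which anchors that complex, rose from 328 ± 52.0 to 1093 ± 165 FPKM (adjusted p = 6.1e-06 by edgeR). Cbll1 rose from 16.7 ± 2.96 to 43.1 ± 13.6 FPKM (adjusted p = 0.000666 by edgeR), and Mettl14, the partner of Mettl3, was at 5.99 ± 1.48 and 4.60 ± 0.721 FPKM (adjusted p = 0.104 by edgeR). Of 7 tested morula and inner cell mass markers, 5 were called higher and 1 lower, beside the same 25.4% and 24%. The 1 called lower was Pou5f1, a pluripotency factor, at 75.9 ± 31.9 FPKM in ASO-Control and 55.2 ± 30.8 in Mettl3-ASO (adjusted p = 0.00332 by edgeR). Sall4, another, rose from 62.1 ± 7.16 to 107 ± 11.6 FPKM (adjusted p = 0.000101 by edgeR). Nanog, also a pluripotency factor, was at 454.06 FPKM in Mettl3-ASO replicate 1 and at 136.09 to 179.27 FPKM in the other 4 (adjusted p = 0.00507 by edgeR). Of 9 tested trophectoderm markers, 0 were called higher and 6 lower, beside 25.4% and 24% of all tested genes. The outer-cell keratin gene Krt8 was at 314.79, 261.9, 107.95, 80.47 and 60.25 FPKM in ASO-Control replicates 1 to 5. It was lowest in ASO-Control replicate 5, the control with the highest family level. In Mettl3-ASO, Krt8 was at 136.99 FPKM in replicate 1 and at 13.33 to 24.63 FPKM in the other 4, among which the family ranged from 2.29 to 715 CPM. The part of this difference in stage or lineage markers in the family's levels was not tested.

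The genes around the Zscan4 cluster were near 0. Of 64 other RefSeq genes within 500000 bases of the members, 12 were measured, and none of these 12 reached 1 FPKM in any library. The highest of them was Nlrp4b, at a mean of 0.080 FPKM in ASO-Control and 0.504 FPKM in Mettl3-ASO, with a maximum of 0.76. Zik1 was at 0.302 and 0.218 FPKM, and the vomeronasal receptor genes of the region were at 0.06 FPKM or less.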

How the data were processed

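Polyadenylated RNA of 10 morula libraries was read from 1 gene table per library. Per the submitters' processing notes, STAR 2.7.10 and RSEM 1.3.3 were used with build mm10; neither strand use nor annotation release is given in the sources used here. Each table lists genes by symbol. The authors deposited expected counts, in which reads matching several genes are shared out by estimation, and TPM and FPKM values, which are normalized per library, with lengths per gene. Because expected counts were available, the test that the plan names for counts was used.

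Expected counts were rounded and tested with edgeR 4.0.16 in R 4.3.3 (quasi-likelihood, TMM, terms for batch and group) on genes averaging at least 1 FPKM over the libraries, called at an adjusted p under 0.05. The members and lists were chosen with earlier results of these data known, and the named genes were taken by rule: all members and Mettl3, the 3 most abundant genes of each list (6 of the 2-cell list), and the 8 genes nearest in profile. An item that the rule names is not reported here. Any other gene is said to be chosen after its values were seen. Alternatives used DESeq2 1.42.0 and limma 3.58.1. The edgeR fit was tested on simulated data, with a common spread for all genes and no batch effect. The changed genes there had higher control levels and smaller changes than the Zscan4 copies. That simulation therefore does not cover the fit for the copies. Intervals are 95% exact Poisson, or exact for pooled ratios, and cover counting error only.

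The titles number the replicates 1 to 5 in each group. The mean of each group and batch was removed first. Libraries with the same number then correlated at 0.314 in the untagged libraries and at 0.215, 0.212 and 0.190 in batch 2. Different numbers in batch 2 correlated at -0.188 to -0.0364. In the untagged libraries different numbers give the exact negative by construction, so both pairs there rest on a single value. All 5 numbers were treated as pairs in the alternative with a replicate block, which for the untagged libraries is an assumption. Mitochondrially encoded transcripts were not analysed here.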

Additional observations from a re-analysis of the deposited data

Results flagged for a closer look

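The following values stood apart from the other libraries of their group by Dixon's test at the 95% level, applied to 12 groups of 5 libraries, of which 4 were flagged. Each is ASO-Control replicate 5. The family sum was 2.71 FPKM there, where the next highest control was at 0.42. Zscan4f was at 1.29 FPKM (next 0.27), Zscan4d at 0.64 (next 0.13) and Zscan4b at 0.25 (next 0.02). The 4 values come from 1 library and from copies that share reads, so they count as 1 observation. For independent values from a normal distribution, chance flags about 1 in 20 groups. The control values are mostly near 0 and the family sum is built from the copies, so that rate need not hold here.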

How the results depend on the processing

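Over 143 fold changes of single copies under alternatives that gave a p, 126 kept direction and call, 16 kept direction and lost the call, and 1 turned. The size of the adjusted p was not stable. By edgeR it was 0.000262 to 0.00256 in the main fit and 1.5e-210 to 9.0e-86 without the filter on level. With robust edgeR it was 0.0046 to 0.0245. The SE was 1.46 to 1.68, 0.24 to 0.44 and 1.91 to 2.21 in these 3 fits. The number of genes called was 4704, and 596 in the untagged libraries alone; leaving out each library in turn gave 4194 to 4800. The number of copies called was 5, and 3 with the Wald test of DESeq2, which gave no p for Zscan4a and Zscan4f because of its filter on outlying counts (5 without that filter). Leaving out each library gave 3 to 5 in the whole series, the 3 being without Mettl3-ASO replicate 4, and 1 to 5 in batch 2 alone, where it was 1 without ASO-Control replicate 3, 1 without ASO-Control replicate 4, 2 without ASO-Control replicate 5 and 1 without Mettl3-ASO replicate 4. Without these controls the log2 fold changes stayed at 5.86 to 9.48 for the copies that lost the call. In batch 2 without Mettl3-ASO replicate 4, its only high Mettl3-ASO library, Zscan4f turned to -0.58. The group by batch interaction called 0 copies, and 1 without Mettl3-ASO replicate 4. The family ratio of 274 was 755 for group medians, 3140 in the untagged libraries, 122 in batch 2 and 864 without ASO-Control replicate 5; leaving out each library gave 199 to 864. Of the 8 nearest genes 5 stayed with log2(CPM + 0.1). With the replicate block in place of batch, 5246 genes and all 5 copies were called. The block changed no call of a copy. Alternatives for the batch 2 libraries, robust edgeR, DESeq2 without its filter and the exclusion of ASO-Control replicate 5 with Mettl3-ASO replicate 1 were chosen after seeing the data. The cause of these changes was not tested. Limits are set by 5 libraries a group, by counts of 0 to 150 in the controls, and by copies that share part of their sequence.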
